A study of Mus musculus with 4 samples.

Results

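The E8.0 and E8.25 libraries hold single-cell RNA from mouse embryos that are hours apart in age and that carry the same tissue label. They were compared over all cells with 1000 or more detected genes and at most 10% of molecules from mitochondrial genes. That rule retained 7577 of 7581 cells at E8.0 and 2954 of 2956 at E8.25, so 10531 of the 22625 cells retained in the 4 libraries of the series. The study sorted the descendants of early mesoderm at 4 stages to follow the cells that build the heart and the pharyngeal muscles. Both embryo pools were Mesp1Cre;Rosa26-GFPflox/+ on the Swiss Webster strain, with no further treatment. The tissue of both is given as the upper part of the body, and the source name as pharyngeal mesoderm. The 2 later libraries, E9.5 and E10.5, came from the pharyngeal apparatus with the heart and serve here only for reference levels.

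Mesp1Cre switches on GFP for good in cells that have expressed Mesp1, a gene of nascent mesoderm, and in their descendants. The sorted fraction, GFP-positive and DAPI-negative after trypsin-EDTA, is therefore a record of lineage and not of a present cell state. It can hold heart, head, somite, vessel and blood cells together. Each library pooled embryos of both sexes, and each stage has 1 library. No ratio below therefore has a replicate check, no p-value was computed, and all 95% intervals (exact Poisson for a level, exact binomial for a share, exact conditional for a ratio) cover counting error only. Levels are in CPM, the counted molecules (UMIs) scaled to 1000000 UMIs over the library's cells. Ratios are log2 of the E8.25 level over the E8.0 level, so that a negative value is lower at E8.25, and a count below 3 was set to 3 before a ratio was taken. Where 0 cells had a feature, the share that this allows is given as 3 cells of the total.

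The E8.0 cells held 168371986 UMIs with a median of 21663 per cell, and the E8.25 cells 110195188 UMIs with a median of 35467 per cell. The median share of mitochondrial UMIs was 1.78% at E8.0 and 1.2% at E8.25, and 41 cell barcodes occurred in both libraries. Because depth per cell differed, shares of cells were taken after every cell had been thinned to 10000 UMIs, which kept 6625 cells at E8.0 and 2929 at E8.25. In those cells the libraries had the same mix of embryo sex within counting error. Cells with a UMI of the X-inactivation RNA Xist and none of a Y-linked gene made up 41.8% (40.6 to 43.0%) at E8.0 and 41.0% (39.2 to 42.8%) at E8.25.

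Around these stages the vertebrate embryo runs several processes side by side. The TGF-beta family ligand Nodal, its co-receptors of the Cripto family and its secreted inhibitors Lefty1 and Lefty2 act for a short window in the left lateral plate mesoderm, which sets the left identity of organs. The Hox genes are read out along the body from head to tail in the order of their paralogue groups, with Cdx factors acting upstream of the posterior groups. Meanwhile the first heart muscle cells assemble sarcomeres, primitive red cells from the yolk sac fill with embryonic globin, and the neural crest starts to leave the neural folds.

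Several genes of the caudal trunk and of the allantois, the extraembryonic mesoderm that forms the umbilical vessels, were present at E8.0 and at or near 0 at E8.25. All levels in this account, unless stated otherwise, leave out blood cells (5% or more of UMIs from haemoglobin genes) and endothelial cells (UMIs of 3 or more of Cdh5, Pecam1, Tie1, Emcn and Esam), which left 7146 cells at E8.0 and 2479 at E8.25. Tbx4, a transcription factor of the allantois and the hindlimb, had 4505 UMIs at E8.0 and 0 at E8.25, or 28.6 CPM against none, which is at least 839.9-fold lower. Hoxa10 had 3949 UMIs at E8.0 and 0 at E8.25, at least 736-fold lower. Pitx1, a hindlimb and caudal factor, went from 62.4 to 5.50 CPM. The label gives the same region for both libraries, and a difference in dissection and a difference in stage cannot be told apart here.

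The Hox genes placed the difference along the body. Of the 39 Hox genes in the files, 15 belong to groups 1 to 5, and of the 12 of these with a mean of 5 or more CPM over both libraries, 0 were 2-fold higher and 0 were 2-fold lower at E8.25. Their ratios ran from -0.94 for Hoxd1 to 0.46. Both measured group 6 genes were 2-fold lower, and so were all 10 measured genes of groups 7 to 13, with ratios from -9.52 for Hoxa10 to -1.95 for Hoxb8. Over all 8889 genes with that mean level, 2.08% were 2-fold or more lower and 1.10% were 2-fold or more higher at E8.25.

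The sums by group showed where the step lay. Group 1 summed to 97.0 CPM at E8.0 and 101 at E8.25, and group 5 to 23.2 at both. Group 6 went from 60.1 to 16.1 CPM and group 9 from 91.0 to 5.08. Group 10 had 6352 UMIs at E8.0 and 3 at E8.25, and group 11 had 1979 and 0. Groups 1 to 5 were within 1.14-fold of each other between the libraries, and groups 6 to 9 were between 3.72-fold and 17.9-fold lower at E8.25, with group 8 (6.95-fold) less far apart than group 7 (9.57-fold). In the cells without posterior UMIs, a setting described below, group 4 was at 18.3 and 29.3 CPM and group 5 at 6.41 and 16.05. Group 5 was thus 2.51-fold higher at E8.25 there, against 23.2 at both with those cells kept. That setting selects cells partly by Hox genes and took out 49.0% of cells at E8.0 and 13.9% at E8.25. How far the selection itself set the group 4 and 5 ratios was not tested.

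**Figure D1:**
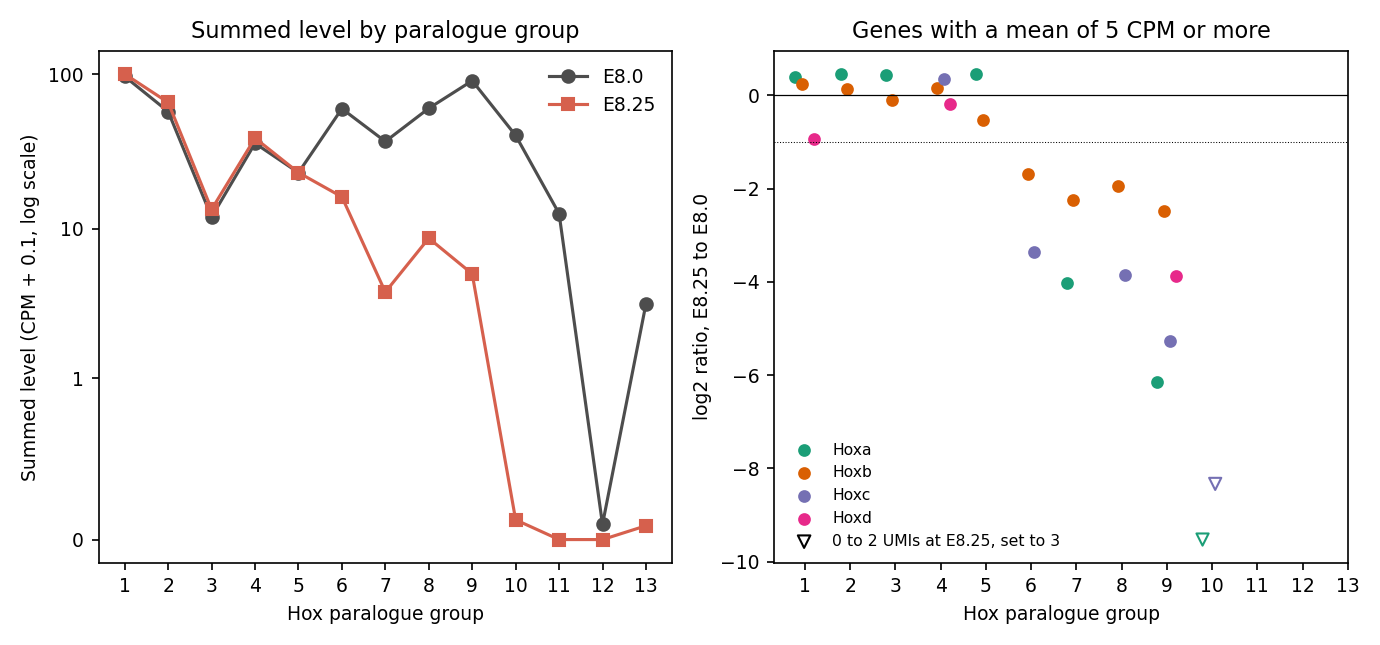
Left, summed level of each Hox paralogue group in the 2 libraries without blood and endothelial cells (CPM, log scale with 0.1 added). Right, log2 ratio of E8.25 to E8.0 for each of the 24 Hox genes with a mean of 5 or more CPM, coloured by cluster, with open triangles where E8.25 had fewer than 3 UMIs and the dotted line at 2-fold lower. The 2 lines on the left overlap through group 5 and part from group 6 on.

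The Cdx factors moved with the posterior Hox genes. Cdx2 was at 64.5 CPM at E8.0 and 4.52 at E8.25, and Cdx4 at 48.1 and 3.01. Cdx1, which reaches further forward in the embryo than the other Cdx genes, went from 28.7 to 11.7, a ratio of -1.30. Of the 9 measured genes of a list of Cdx, Meis and Pbx genes, these 3 were 2-fold lower and none was 2-fold higher. Meis1, Meis2, Meis3, Pbx2 and Pbx3 stayed between -0.19 and 0.25. Of the 7 measured genes of a list for the primitive streak and tail bud, 4 were 2-fold lower and none higher, and the fourth beside the Cdx genes was Nkx1-2, a gene of caudal progenitors (8.84 and 1.94).

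The promoters of 2 posterior Hox genes were read for the motif of the Cdx factors. They are Hoxa7 (26.2 CPM at E8.0, 1.6 at E8.25) and Hoxb8 (22.4 and 5.80). Their 250 bases before the start site hold the Cdx motif TTTATG or its reverse complement CATAAA. Among the measured genes of groups 7 to 13 that had a promoter sequence to read, these were the only 2. The sequences are RefSeq's for GRCm38.p6, read 5′ to 3′ in the direction of the gene, with each match in capitals. Hoxa7 lies on the minus strand at chr6:52218574-52218823, with matches 236 and 173 bases before the start, and Hoxb8 on the plus strand at chr11:96281655-96281904, with matches 157 and 143 bases before it.
Hoxa7: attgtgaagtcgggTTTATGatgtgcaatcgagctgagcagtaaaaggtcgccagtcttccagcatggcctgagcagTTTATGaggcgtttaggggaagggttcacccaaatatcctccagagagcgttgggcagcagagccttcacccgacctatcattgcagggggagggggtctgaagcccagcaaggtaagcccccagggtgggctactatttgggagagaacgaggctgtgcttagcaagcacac
Hoxb8: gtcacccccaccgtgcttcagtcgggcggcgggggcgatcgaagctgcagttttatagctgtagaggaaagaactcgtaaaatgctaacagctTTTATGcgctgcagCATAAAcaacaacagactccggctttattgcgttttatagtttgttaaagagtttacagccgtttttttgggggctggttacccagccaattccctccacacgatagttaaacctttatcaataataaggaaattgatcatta
On both strands, the motif occurred in 3 of the 12 genes of groups 7 to 13 in the promoter table, in 2 of 10 of groups 1 to 6 and in 3357 of all 27025 genes (12.4%). A match is a description of the letters and not a binding site, and these counts are too small to separate the posterior from the anterior groups.

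Marker gates counted the cells behind these levels. A gate is a range of marker detection and not a cell type, and cells that met more than 1 gate were kept apart. Of cells thinned to 10000 UMIs, 691 of 6625 (10.4%, 9.70 to 11.2%) met the allantois-like gate alone at E8.0, against 0 of 2929 at E8.25, which allows a share of up to 0.102%. The gate asked for 2 or more of Tbx4, Pitx1, Hoxa10, Hoxa11 and Hoxa13. The caudal mesoderm-like gate, 2 or more of Cdx1, Cdx2 and Cdx4, held 441 cells (6.66%) at E8.0 and 26 (0.888%) at E8.25. A further 423 E8.0 cells met both gates. The caudal share was lower at E8.25 in every setting tried.

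The gates of the anterior body were present in both libraries. Somite-like cells, with 2 or more of Tcf15, Meox1, Pax3, Tbx18 and Uncx, made up 11.5% (10.8 to 12.3%) at E8.0 and 17.3% (16 to 18.7%) at E8.25. Cranial mesoderm-like cells, with 2 or more of Otx2, Alx1, Cyp26c1, Foxd1 and Prrx1, made up 10.6% and 13.4%, but the order turned when cells were thinned to 5000 UMIs or when 1 more marker was required. Cardiopharyngeal progenitor-like cells, with 3 or more of Isl1, Tbx1, Nkx2-5, Nkx2-6, Fgf8 and Fgf10, made up 4.6% (4.11 to 5.14%) and 5.09% (4.32 to 5.95%), which overlap within counting error. Without thinning that share was 4.04% and 3.15%. The shares of a library add up to the whole, so more cells of one gate and fewer of another cannot be told apart.

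Cardiomyocyte-like cells, with 4 or more of Tnnt2, Tnni1, Tnnc1, Myl4, Myl7 and Ttn, made up 4.65% (4.15 to 5.18%) at E8.0 and 2.77% (2.20 to 3.43%) at E8.25. Neural crest-like cells, with 2 or more of 5 markers that include Sox10, Foxd3, Tfap2a and Tfap2b, numbered 1 of 6625 at E8.0 and 79 of 2929 (2.70%, 2.14 to 3.35%) at E8.25. The neural crest is not of mesodermal origin, so these cells do not match the lineage label. The gates have soft edges. At E8.0, 1380 cells were 1 marker short of the somite-like gate and 706 stood exactly at it, and at E8.25 the counts were 778 and 463. Cells of no gate were 28.0% and 33.7%, and cells of several gates 17.6% and 8.09%. Without thinning, cells of several gates were 38.7% and 44.8%.

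**Figure D2:**
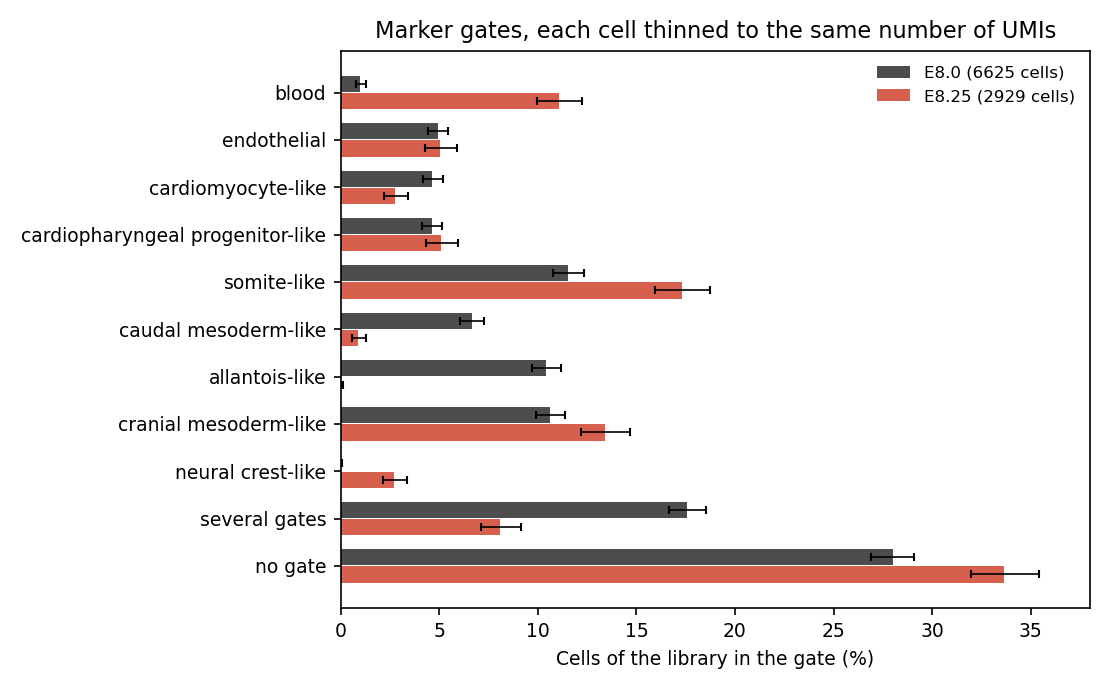
Share of cells (%) in each marker gate at E8.0 (6625 cells, grey) and E8.25 (2929 cells, red), every cell thinned to 10000 UMIs, with exact binomial 95% intervals. Allantois-like and caudal mesoderm-like cells stand at 10.4% and 6.66% at E8.0 against 0% and 0.888% at E8.25, while blood stands at 0.996% against 11.1%.

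Red cell genes were among those with the highest ratios over all retained cells. The blood gate held 69 cells (0.911%) at E8.0 and 325 (11.0%) at E8.25 without thinning, while endothelial cells were close, with 4.78% and 5.11%. All 69 blood cells at E8.0 held 5 to 10% haemoglobin UMIs, against 96 of the 325 at E8.25. A further 84 cells at E8.0 and 7 at E8.25 held 2.5 to 5%, so the E8.0 share depends on the cut. Over all cells 8881 genes had a mean of 5 or more CPM, of which 133 (1.5%) were 2-fold or more higher at E8.25 and 229 (2.58%) were 2-fold or more lower. Of the 12 genes with the highest ratios, 7 belong to the red cell. They include 5 globins, namely the embryonic beta-like Hbb-y (40.6 to 2112 CPM, chr7:103851754-103853207) and Hbb-bh1 (887 to 7889), the alpha-like Hba-x (619 to 6695) and Hba-a1 (143 to 3774), and Hbb-bs. Another of the 7 was Alas2, the erythroid enzyme that starts haem synthesis (5.50 to 64.1). Mgst3, a glutathione transferase, was also among the 12 (18.3 to 136). Of the 7 measured members of the globin list, 6 were 2-fold higher over all cells and none lower.

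The red cells also differed in what they carried. Within the blood gate Hbb-y was at 1798 CPM at E8.0 and 10814 at E8.25, while Hbb-bh1 was at 29482 and 42273. Hbb-y was thus 6.01-fold higher per UMI of a blood cell, and Hbb-bh1 1.43-fold. These are ratios within the gate that haemoglobin itself defined, so they are a description. The E8.0 cells of this gate all held 5 to 10% haemoglobin UMIs, at its lower edge.

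Globin outside the blood gate followed a different pattern at each stage. At E8.25 Hbb-y lay between 395 and 441 CPM in every other gate with 50 or more cells in both libraries, whatever the gate, and 98.8% of all cells had at least 1 Hbb-y UMI. At E8.0 it lay between 3.13 and 30.6, with 5.01% of cells. RNA free in the cell suspension can give cells of every type a like low level, but the source of these globin UMIs was not tested. Globin UMIs outside the blood gate at E8.25 are therefore not read here as expression by those cells. This holds for all 5 globins measured without blood and endothelial cells. Each was 2-fold higher at E8.25 (3 of 5 among cells without posterior UMIs). At E8.0 the gate also left behind cells that contained globin, since 84 E8.0 cells and 7 E8.25 cells had 2.5 to 5% haemoglobin UMIs.

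Factors that act before globin did not follow it outside the blood and endothelial gates. Over all retained cells 4 of 16 measured members of a list of haematoendothelial and erythroid factors were 2-fold higher and 2 were 2-fold lower, with 8 ratios above 0. Etv2, which opens the endothelial and blood fate, went from 143 to 73.4 CPM among the cells outside both gates. Among those cells the 12 measured members of the list had ratios below 0, with a median of -0.85, but only Sox18 (10.52 to 3.12) passed 2-fold. Kdr, the VEGF receptor of the shared progenitor, went from 64.7 to 35.8. In cells that also lacked UMIs of posterior genes, a setting described below, Etv2 was at 88.8 and 79.3, a ratio of -0.16, and the list's median was -0.23 with 0 of 12 past 2-fold.

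Without blood and endothelial cells, 98 of 8889 genes were 2-fold or more higher at E8.25 and 185 were 2-fold or more lower. The rest lay close together, with a median ratio of 0.01 and 7938 genes (89.3%) within 1.5-fold. The comparison was run once more without any cell that had, after thinning, a UMI of Hox groups 7 to 13, Cdx1, Cdx2, Cdx4 or Tbx4. That setting was chosen after the data were seen. It took out 3052 of 6234 cells (49.0%) at E8.0 and 342 of 2457 (13.9%) at E8.25, and left 3182 and 2115. Of 8842 genes, 76 (0.860%) were then 2-fold or more higher and 143 (1.62%) were 2-fold or more lower. Values in these cells without posterior UMIs are given below for the lists whose counts changed.

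**Figure D3:**
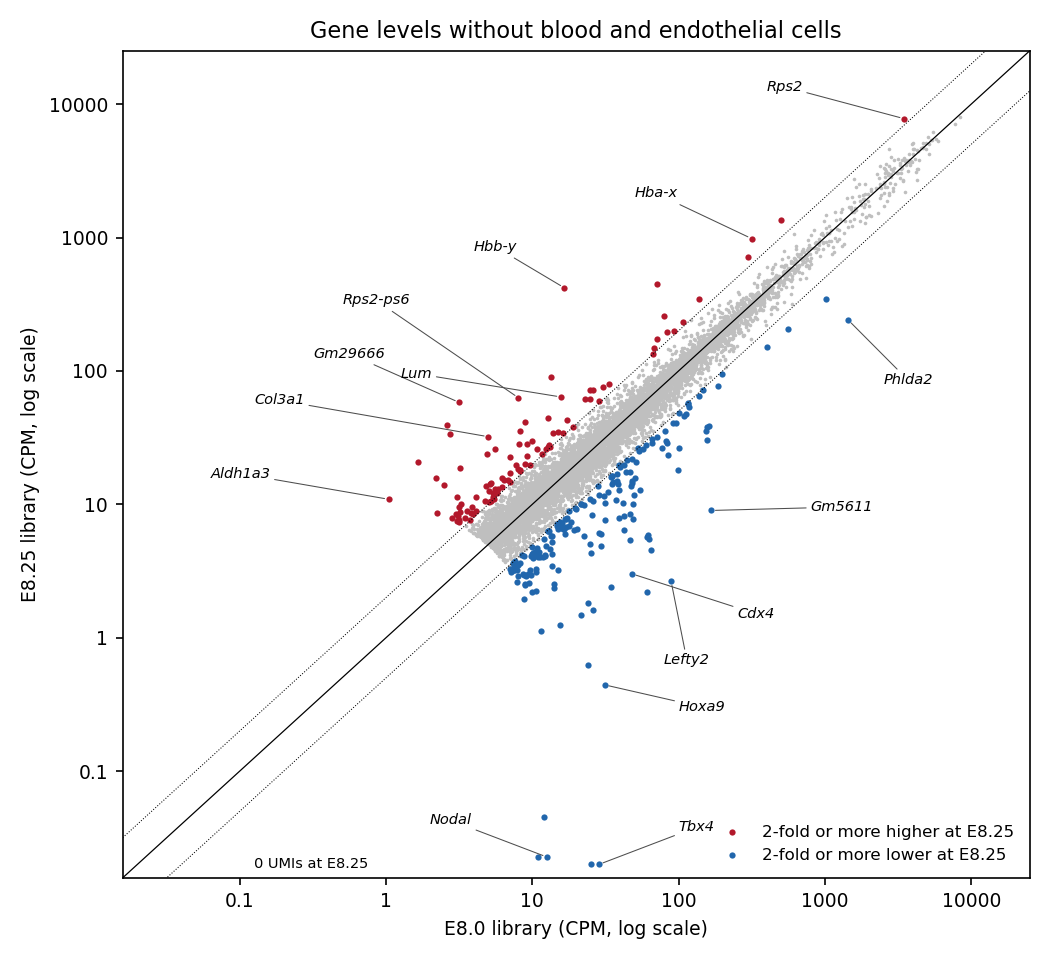
Level of each gene with a mean of 5 or more CPM in the E8.0 library (x) and the E8.25 library (y) without blood and endothelial cells, on log scales. Red points are the 98 genes 2-fold or more higher and blue points the 185 genes 2-fold or more lower at E8.25, and genes with 0 UMIs at E8.25 are drawn on the bottom edge. Most of the 8889 genes follow the diagonal, and Lefty2, the posterior genes and a few copies of ribosomal protein genes lie far from it.

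Lefty2 had the lowest ratio of any gene with a mean of 20 or more CPM. It encodes a secreted inhibitor of Nodal and lies at chr1:180893108-180899107. It had 13987 UMIs at E8.0 and 233 at E8.25, or 88.8 and 2.65 CPM, a ratio of -5.07 (-5.26 to -4.88), 33.6-fold lower. Its neighbour Lefty1, a close copy of it that the midline also uses, had 606 and 12 UMIs, and how the counting shared reads between the copies is not given in the sources used here. In the cells without posterior UMIs Lefty2 was at 109.8 and 2.62, a ratio of -5.39, about as large as with the posterior cells kept.

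Nodal itself was at the limit of detection at E8.25. It had 1977 UMIs at E8.0 and 2 at E8.25, or 12.6 and 0.0227 CPM, a ratio of -9.11 (-12.16 to -7.26) from the counts as they are. Of 6625 thinned cells at E8.0, 520 (7.85%) had a Nodal UMI, and of 2929 at E8.25 none did, which allows a share of up to 0.102%. For Lefty2 the numbers were 961 cells (14.5%, 13.7 to 15.4%) and 35 (1.19%, 0.834 to 1.66%). The cell with most Lefty2 UMIs had 59 at E8.0 and 8 at E8.25. Blood cells, which should lack Lefty2, had a UMI in 6.06% of 66 cells at E8.0 and in 0.309% of 324 at E8.25, so shares near these are background.

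The pathway moved unevenly. Of the 13 measured members of a left-right Nodal list, 5 were 2-fold lower and none higher, with a median of -0.30. Besides Nodal and Lefty2 these were the co-receptors Tdgf1, also called Cripto (14.1 to 2.35), and Cfc1, also called Cryptic (37.5 to 10.8), and the inhibitory Smad7 (31.5 to 10.2). Of the Tdgf1 UMIs in thinned E8.0 cells, 69.6% lay in the cardiomyocyte-like gate, where Tdgf1 went from 216 to 23.5 CPM. Foxh1, the transcription partner through which Nodal acts, went from 6.55 to 1.67 at a mean under the minimum. Smad7 was at 17.6 and 9.58 among cells without posterior UMIs, where 4 of 13 were 2-fold lower. The other transducers named here stayed under 2-fold. Smad2 was at 25 and 23.2, Smad4 at 33.3 and 36.5, and the receptor Acvr2b at 67.6 and 103.

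Within gates the same order was seen. In cardiopharyngeal progenitor-like cells Lefty2 had 1109 UMIs in 305 cells at E8.0 and 8 UMIs in 149 cells at E8.25, or 364 and 5.37 CPM. In these cells 31.8% (26.6 to 37.4%) had a Lefty2 UMI at E8.0 and 2.68% (0.736 to 6.73%) at E8.25. In somite-like cells the ratio was -6.25 and in cells of no gate -6.15, while in cardiomyocyte-like cells it was -2.97 (116 to 14.8). All 7 gates with 20 or more Lefty2 UMIs were 2-fold lower. One of them, the endothelial gate, had a Lefty2 UMI in only 6.46% of 325 cells at E8.0. That is near the share of blood cells, so its ratio cannot be told from background. The E8.0 shares of somite-like cells (10.85%), cranial mesoderm-like cells (11.8%) and cells of several gates (14.8%) also lay within the interval of blood cells. Their Lefty2 levels at E8.0 (45.0, 51.1 and 95.2 CPM) were above that of blood cells (6.06, 1.65 to 15.5). Cfc1 was 2-fold lower in 6 of 7 gates, the exception being the cardiomyocyte-like gate, at 146 and 104.

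A few genes that mark the epiblast and the start of gastrulation were low at E8.0 and lower at E8.25. Pou5f1, the pluripotency factor Oct4, went from 15.5 to 1.24 CPM, a ratio of -3.65, and was 2-fold lower in all 5 gates with enough UMIs. Of 8 measured genes of the epiblast list, Pou5f1 and Tdgf1 were 2-fold lower and none higher, with a median of -0.21 and 2 ratios above 0. Most Tdgf1 UMIs of thinned E8.0 cells lay in cardiomyocyte-like cells (69.6%) or in cells of several gates (27.0%). Tdgf1 alone of 7 was 2-fold lower among cells without posterior UMIs, with Pou5f1 (7.84 to 1.09) at a mean under the minimum. Mesp1, the gene whose Cre allele labels these cells, had 401 UMIs at E8.0 and 32 at E8.25, 2.55 and 0.363 CPM. Brachyury (T) had 529 and 69. Both lie under the minimum level, so neither counts among the called genes.

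Heart muscle genes were lower at E8.25. Of 17 measured genes of the sarcomere and cardiomyocyte list, 7 were 2-fold lower and none higher, with a median of -0.90, and 16 of 17 ratios were below 0. The giant sarcomere protein titin, Ttn, went from 54.3 to 12.9 CPM. The atrial light chain Myl7 went from 399.9 to 151, and the troponin Tnnt2 from 118 to 53.6. Tagln, a gene of smooth and early heart muscle, was the exception at 42.3 and 72.5. Among cells without posterior UMIs 14 of 19 were 2-fold lower, with a median of -1.38 and Ttn at 87.1 and 13.8.

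Fewer cardiomyocytes and less RNA per cardiomyocyte cannot be told apart in such sums, so the gate was read as well. The cardiomyocyte-like share was 4.65% against 2.77% of thinned cells. In the gated cells Ttn was at 914 and 288 CPM and Myl7 at 6494 and 2906, but both helped to define the gate, so these are levels only. Tbx20, a heart and lateral plate transcription factor that is not among the markers, went from 341 to 63.0 in that gate. Tbx20 was 2-fold lower in all 7 gates with 20 or more UMIs, with ratios from -3.43 to -1.37. In somite-like and cranial mesoderm-like cells its E8.0 levels (5.62 and 6.54 CPM) were no higher than in the blood gate (7.58, from 5 UMIs). The ratios of those gates therefore cannot be told from background. Their intervals, and that of the endothelial gate (-3.29 to -0.54), included ratios under 2-fold. At E9.5 and E10.5 Ttn was at 157 and 59.0 among cells outside the blood and endothelial gates, so E8.25 held the lowest of the 4 levels.

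The cardiopharyngeal progenitor genes did not move together. Of 24 measured, 6 were 2-fold lower and none higher, with a median of -0.21. The 6 were the ligand Wnt5a (46.2 to 17.5), the GATA factors Gata4 (19.6 to 9.33) and Gata5 (24.8 to 11.0), the bHLH factors Hand1 (146 to 72.1) and Hand2 (44.3 to 21.4), and the homeobox gene Nkx2-5 (39.2 to 19.6). On the other side Tbx1, the pharyngeal factor of the study's title, was at 36.0 and 63.0, a ratio of 0.81. It did not pass 2-fold. Among cells without posterior UMIs Tbx1 was at 58.2 and 69.4, Hand1 at 53.9 and 46.7 and Wnt5a at 22.5 and 15.2, while Nkx2-5 was at 60.2 and 20.9. The difference in Tbx1, Hand1 and Wnt5a was thus smaller without posterior cells, and that in Nkx2-5 larger. There 3 of 24 were 2-fold lower, namely Nkx2-5, Gata5 (23.7 to 10.8) and Mef2c (82.8 to 35.1), while Gata4 (15.1 to 9.33) and Hand2 (27.6 to 16.8) were not. Within the progenitor gate, where Tbx1 is a marker, it was at 164 and 197.

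Head and somite genes differed little. None of the 13 measured head mesoderm genes passed 2-fold, with a median of 0.37 and Ebf1 at 57.1 and 92.4. Of 11 somite genes 1 was 2-fold higher and none lower, and among cells without posterior UMIs none of 10 passed 2-fold. Pax1, a marker of the sclerotome, had 9 UMIs at E8.0 and 399 at E8.25, or 0.0572 and 4.53 CPM, a level under the minimum mean. The presomitic genes Tbx6 and Mesp2 had 234 and 115 UMIs at E8.0 against 32 and 17 at E8.25. Within the somite-like gate Tcf15 and Meox1 are markers and were not compared.

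**Figure D4:**
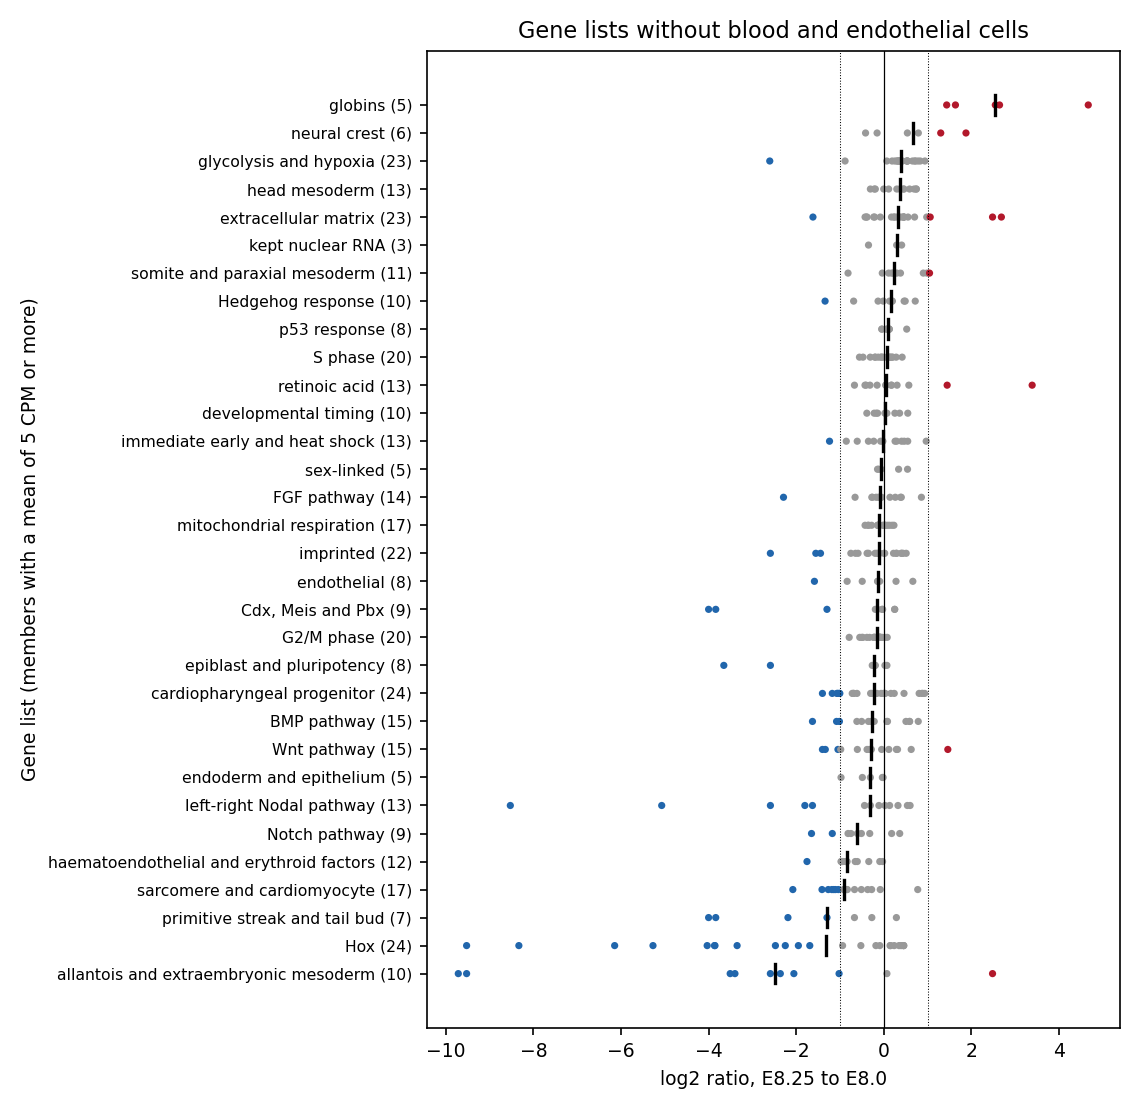
Log2 ratio of E8.25 to E8.0 without blood and endothelial cells for the measured members of the gene lists named on the axis, with 1 point per gene (red or blue past 2-fold), a bar at each list's median and dotted lines at 2-fold. Globins lie above 0, posterior Hox genes and allantois genes reach furthest below it, and sarcomere genes lie mostly below it.

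The allantois list showed the widest spread. Of its 10 measured genes 8 were 2-fold lower and Postn was 2-fold higher, with a median of -2.47. Only Tbx20 (40.7 to 5.17) of 6 measured was 2-fold lower among cells without posterior UMIs. Phlda2, an imprinted gene that restrains placental growth, had 227585 UMIs at E8.0 and 21166 at E8.25, or 1445 and 240.3 CPM. In the cardiomyocyte-like gate it was at 1109 and 1032 and in the cranial mesoderm-like gate at 245 and 252, while among cells of several gates it was at 1803 and 108. Among cells without posterior UMIs it was at 310.3 and 201. The difference in Phlda2 was therefore unequal over gates, and in the cardiomyocyte-like and cranial mesoderm-like cells it was under 2-fold. Of 22 measured imprinted genes, Phlda2, Cdkn1c (556 to 205) and Peg10 (77.0 to 26.3) were 2-fold lower, and among cells without posterior UMIs none was.

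Several genes of the extracellular matrix were higher. Col3a1, a fibrillar collagen of mesenchyme, went from 4.99 to 32.1 CPM, a ratio of 2.69. It was 2-fold higher in all 5 gates with 20 or more UMIs, with ratios from 2.17 to 3.18. Postn, periostin, went from 2.48 to 13.9. Lum, a proteoglycan that binds collagen and is not on the matrix list, went from 15.7 to 63.8 (chr10:97565501-97572703). Cxcl12, the chemokine that guides migrating cells, went from 5.57 to 26.2 and was 2-fold higher in 4 of 4 gates. Of the 23 measured genes of the matrix list Col3a1, Postn and Col5a2 (12.5 to 26) were 2-fold higher, and Has2, which makes hyaluronan, was 2-fold lower (25.4 to 8.30). The ratio of Col3a1 among cells without posterior UMIs was 2.4, and it was at 69.9 CPM at E10.5, above both early libraries. In those cells Col5a2 did not pass 2-fold (13.6 to 24.5) and Col9a1 did (10.4 to 29.1).

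Of 13 measured retinoic acid genes 2 were 2-fold higher and none lower, and among cells without posterior UMIs Rbp4, a retinol carrier, was the third (6.97 to 14.6). Crabp2, which carries retinoic acid in the cell, went from 26.2 to 71.4 and was 2-fold higher in 7 of 8 gates. Aldh1a3, a retinoic acid synthase, went from 1.04 to 10.9, but it was at 0.620 and 0.604 in the E9.5 and E10.5 libraries, and at E8.25 it had 26.9 CPM in the blood gate. The main synthase of this tissue, Aldh1a2, was at 76.3 and 56.7, and the breakdown enzyme Cyp26a1 at 38.7 and 24.4. Nr2f1, an orphan receptor gene that retinoic acid induces, went from 8.28 to 35.6, a ratio of 2.1 (chr13:78188971-78198873). It was 2-fold higher in 4 of 6 gates and did not pass in the endothelial (0.67) and the cranial mesoderm-like (0.93) gate.

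Of 14 measured FGF genes only Il17rd, a feedback inhibitor of FGF signalling also called Sef, passed 2-fold, from 29.5 to 6.03. It was 2-fold lower in 7 of 7 gates. In cardiopharyngeal progenitor-like cells it was at 117 and 24.8. The other feedback genes did not follow it, with Dusp6 at 29.6 and 53.8, Spry2 at 15.7 and 13.1 and Etv4 at 8.71 and 8.38. Fgf3 had 1332 UMIs at E8.0 and 44 at E8.25, at a mean under the minimum, and the ligand Fgf8 was at 42.9 and 35.5.

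Feedback inhibitors were also the BMP genes that differed. Of 15 measured, Smad7, Smad6 (15.5 to 7.34) and Bambi (117 to 57.9) were 2-fold lower, while the ligand Bmp4 was at 46.6 and 49.0. The direct targets Id1, Id2 and Id3 had ratios of 0.51, 0.59 and 0.59, under 2-fold. Among cells without posterior UMIs Id1 was at 127 and 255, which passed 2-fold, and none of the 3 inhibitors did.

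Of 15 measured Wnt genes, Wnt5a, Wnt5b (13 to 6.31) and Rspo3 (37.7 to 15) were 2-fold lower and Wnt6 (4.11 to 11.3) was 2-fold higher. The pathway's response gene Axin2 was at 28.1 and 22.9. Rspo3 was at 11.7 and 12.4 among cells without posterior UMIs, where it did not differ by 2-fold, and Wnt5b was at 4.74 and 5.62. In those cells only Sfrp5 (51.6 to 18.5) of 14 Wnt genes passed 2-fold, and Wnt6 (1.73 to 7.61) was at a mean under the minimum. Of 9 Notch genes, Jag1 (22.5 to 9.96) and Nrarp (9.04 to 2.88) were 2-fold lower, and of 10 Hedgehog genes only Foxf2 (12.4 to 4.88). Among 8 measured endothelial genes only Eng (9.62 to 3.21) passed 2-fold outside the endothelial gate. None of 7 Notch, 10 Hedgehog or 6 endothelial genes was 2-fold apart among cells without posterior UMIs, with Foxf2 at 7.80 and 4.73, Eng at 3.67 and 3.32 and a ratio of -0.56 for Jag1.

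Glycolytic enzymes leaned one way without passing 2-fold. Of the 23 measured genes of glycolysis and hypoxia 21 had a ratio above 0, with a median of 0.40 against 0.01 over all genes. Gapdh was at 2376 and 3441 CPM and Eno1 at 1715 and 2499. Vegfa, the vessel growth factor on the same list, was 2-fold lower (29.6 to 4.88) and lower by 2-fold in 6 of 7 gates. The 17 measured genes of mitochondrial respiration had a median of -0.10, and none passed 2-fold.

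Cycling and stress genes were close between the libraries. None of the 20 S phase genes and none of the 20 G2/M genes passed 2-fold, with medians of 0.08 and -0.15. The G2/M genes leaned one way, with 18 of 20 ratios below 0, against 4284 of 8889 over all genes. Of 13 immediate early and heat shock genes only Junb passed (13.7 to 5.80), and it did not among cells without posterior UMIs (7.35 to 5.91). None of 8 p53 response genes, 10 developmental timing genes, 5 sex-linked genes or 3 RNAs kept in the nucleus did. For other germ layers, 0 of 5 endoderm genes passed 2-fold, Wnt6 was the 1 of 2 neural plate genes that did, and of 6 measured neural crest genes 2 did, among them Sox9 (24.9 to 61.4). The defining crest genes were near 0 at E8.0 and present at E8.25, with Sox10 at 14 and 620 UMIs, Tfap2b at 3 and 717 and Foxd3 at 2 and 176. All 3 lie under the minimum mean level, so the list's count does not hold them.

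**Figure D5:**
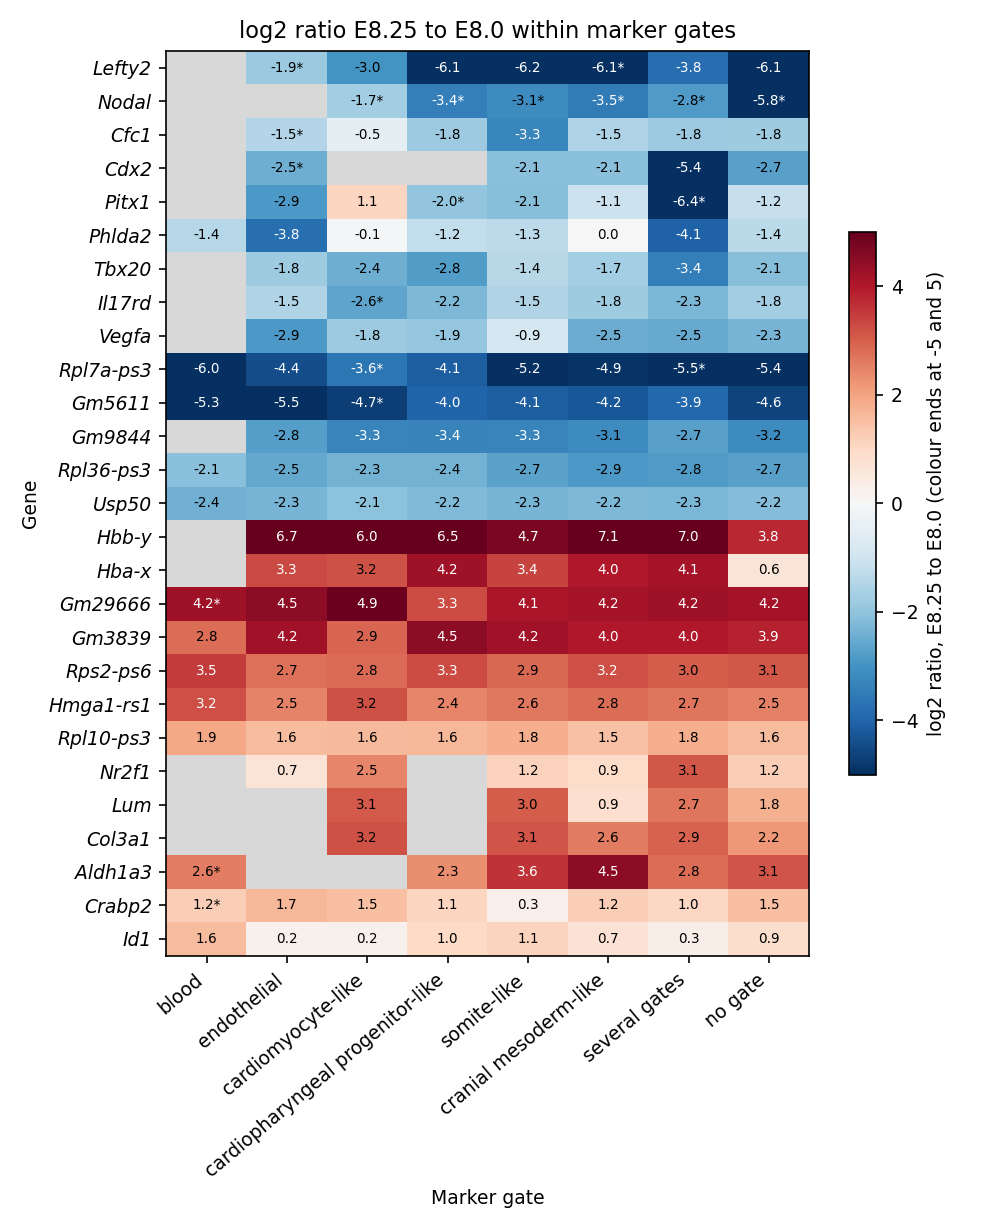
Log2 ratio of E8.25 to E8.0 (number and colour) of named genes, in rows, within the marker gates, in columns, every cell thinned to 10000 UMIs. Grey fields have under 20 UMIs or a marker of the gate, and an asterisk marks a library with fewer than 3 UMIs, set to 3. Lefty2, Tbx20 and Il17rd are 2-fold lower and Col3a1 is 2-fold higher in every coloured field.

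The 24 genes named by ratio without blood and endothelial cells were followed into the 8 gates with 50 or more cells in both libraries. Of these genes 16 were 2-fold or more in 1 direction in every gate where they had 20 or more UMIs. The 8 that were not are Nr2f1, Lum, Hba-x, Pitx1, Plac1, Unc5b, Pcgf5 and Phlda2. The 24 were chosen by ratio in these same cells, and the share of all genes that pass was not computed. For Hbb-y and Hba-a1 the blood gate, which they helped to define, is counted. In the caudal mesoderm-like gate, which is not among the 8 gates and which Cdx2 helps to define, Cdx2 was at 239 and 231 CPM. Unc5b, a netrin receptor (42.7 to 6.37), was 2-fold lower in 6 of 7 gates, and Plac1, a placental gene (61.0 to 5.73), in 5 of 7. Pcgf5, a Polycomb component (48.6 to 7.82), was 2-fold lower in 4 of 8. Pitx1 was 2-fold lower in 6 of 7 and higher in the cardiomyocyte-like gate, at 11.0 and 23.5 CPM, a ratio of 1.09 (0.20 to 1.94). Unc5b was at 24.9 and 6.12, Pcgf5 at 14.6 and 6.03 and Plac1 at 7.07 and 4.39 among cells without posterior UMIs. Dynlt1c and Rnaset2a were 2-fold higher in all 8, with ratios from 1.39 to 2.72 and from 1.5 to 2.22. The study used several sequencing instruments, and which one read each library is not given in the sources used here. The paper also reports batch effects between its single-cell data of different time points. With 1 library per stage, a difference between libraries and a difference between stages cannot be told apart for these or any other genes.

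Part of what was flat over gates carried the names of gene copies. Of 16 measured genes named as a pseudogene or a related sequence (-ps, -rs), 4 were 2-fold higher and 4 lower. Of 96 genes named Gm with a number 26% were 2-fold apart, against 2.85% of the other 8777. Rpl7a-ps3 went from 60.8 to 2.19 CPM while its parent Rpl7a was at 1817 and 2066, and the sum of the Rpl7a rows had a ratio of 0.14. Rpl36-ps3 went from 46.5 to 8.44, and the Rpl36 sum had a ratio of 0.08. Reads of near-identical copies can be split between them by the counting, so these genes are uncertain and are not read as expression. Rps2-ps6 was the exception in part, because Rps2 itself was at 3467 and 7783 and the sum at a ratio of 1.17.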

How the data were processed

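The authors deposited raw UMI counts per gene and cell, made with Cell Ranger 3.1.0 and mm10 as the submitters' processing notes name them. Single-cell 3′ v2 libraries were read from sorted cells of pooled embryos. All 27998 genes were read, and cells with 1000 or more genes and at most 10% mt- UMIs were kept. No cell was removed as a doublet; an alternative left out the highest Scrublet scores, 0.8% per 1000 cells of a library. UMIs were summed per library and expressed as CPM (per 1000000 UMIs), with 168371986 and 110195188 UMIs behind the 2 stages. A gene counted as measured at a mean of 5 CPM over both libraries, and as higher or lower at 2-fold. With 1 library per stage no model was fitted. Exact 95% intervals cover counting error only.

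The genes named by ratio were the 12 highest and 12 lowest with a mean of 20 or more CPM, in each comparison. Members of the 33 gene lists could be named with their values. The members and lists were chosen with earlier results of these data known. For gates, cells were thinned to 10000 UMIs with seed 1. Positions and promoters are RefSeq's for GRCm38.p6, matched by gene symbol (22856 genes), and no coordinates of another build were used. Alternatives changed the library scaling (TMM factors of edgeR 4.0.16, size factors of DESeq2 1.42.0), the weight of cells, the filters, the fold, the gates and the thinning. The comparison was tested on simulated data with known fold changes. Python 3.11.15, numpy 2.4.6, scipy 1.17.1, pandas 2.3.3, scanpy 1.11.5 matplotlib 3.10.9 and R 4.3.3 were used. A few genes are not reported here.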

Additional observations from a re-analysis of the deposited data

How the results depend on the processing

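No paired analysis was possible because each stage has 1 library. Over all retained cells, 305 genes were higher and 437 lower with a minimum mean of 1 CPM, 51 and 90 with a minimum of 20, 347 and 684 at 1.5-fold and 63 and 86 at 3-fold. Without blood and endothelial cells the counts under the same settings were 259 and 385, 35 and 79, 391 and 560, and 29 and 72. The other settings of scaling, weighting, depth, cell filter, doublets and gates kept each count within 1.5 times, but single named genes moved more. The largest shift of a named gene on the log2 scale was 0.03 with the scalings by edgeR and DESeq2, 0.37 with thinned cells, 0.44 with totals without haemoglobin, mt- and ribosomal protein genes and 0.48 with equal weight per cell. It was 2.65 (Hba-x) with looser blood and endothelial gates and 2.73 (Plac1) without posterior cells, a setting chosen after seeing the data. Of shares, on the log2 scale, thinning to 5000 UMIs gave 0.349 for somite-like, -3.69 for caudal mesoderm-like and -1.78 for several gates, and turned cranial mesoderm-like to -0.128. Without thinning, cardiomyocyte-like was -0.329, cardiopharyngeal progenitor-like -0.359 (turned from 0.14), somite-like 0.212, allantois-like -6.27 and neural crest-like 4.58, and several gates (0.211) and no gate (-0.863) also turned. With 1 marker more, cardiomyocyte-like was -1.28, somite-like 0.0664, several gates -1.38 and no gate 0.0884, and cranial mesoderm-like turned to -0.258. The median of the Hox list turned from -1.31 to 0.33 without posterior cells, and to 0.29 when only cells with 2 or more posterior UMIs were left out, which took the posterior genes out by construction. The causes of the other shifts were not tested. The number of cells limits rare classes, since 0 cells of 2929 allow a share of up to 0.102%.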

Other observations

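For some genes the E8.25 library stood apart from E8.0 and also from both later libraries, outside blood and endothelial cells. Of the 98 genes 2-fold or more higher at E8.25 than at E8.0, 30 were at least 2-fold above all 3 other libraries, and of the 185 lower genes 48 were at least 2-fold below all 3. The later libraries came from another region, and the genes named here were chosen after their values were seen, so all of this is a description. The submitters' notes name the same tool and build for the 4 libraries, and which of the study's sequencing instruments read each of them is not given in the sources used here. Levels are given in CPM in the order of the 4 stages. Rrm2b, a p53-induced subunit of ribonucleotide reductase, was at 2.76, 33.8, 4.35 and 3.81, and was 2-fold higher at E8.25 than at E8.0 in all 8 gates. Gm29666 was at 3.16, 58.1, 1.08 and 1.82. Usp50, a gene of the ubiquitin protease family, was at 155, 35.2, 94.1 and 110.2, with log2 ratios of E8.25 to E8.0 from -2.40 to -2.07 over the 8 gates.

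Among heart genes with E8.25 lowest of the 4, Tnnt2 was at 118, 53.6, 418 and 139 CPM, Myl3, a light chain of the ventricle, at 35.5, 14.8, 249 and 82.5, and Tbx20 at 61.8, 5.87, 16.4 and 51.8. The inhibitory Smad7 was at 31.5, 10.2, 38.2 and 30.6, and Skil, a gene that TGF-beta family signals induce, at 19.2, 6.38, 24.2 and 30.1. The early Nodal genes had another course. Lefty2 was at 88.8, 2.65, 0.254 and 0.205, and Nodal at 12.6, 0.0227, 0.0423 and 0.0292.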
